A study of Mus musculus with 12 samples.

Results

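Neurosphere cells grown from ependymal cells of the adult mouse spinal cord were compared with the freshly sorted ependymal cells that served as their source. The comparison used 3 arrays of neurosphere cells and 3 arrays of spinal cord (SC) ependymal cells. Members were all probes with 1 gene symbol and a detection p under 0.01 on 3 or more of these 6 arrays. These were 10139 of the 29976 probes with 1 symbol on an array of 46632 probes, and they stood for 8221 of 17711 named genes.

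The series held 12 Illumina MouseWG-6 arrays in 4 groups of 3, described as independent biological replicates. The SC ependymal cells came from adult C57Bl/6 mice and were sorted as CD133+, CD24+, CD45- and CD34-. The neurosphere cells came from a culture started with SC ependymal cells of adult C57Bl/6 mice and were not sorted. Medium, passage number and days in culture were not given in the sources used here, so sorting, culture and cell state differ together between the groups. The other groups were ependymal cells of the lateral ventricular wall with the same sort phenotype, which entered the shared estimate of spread, and embryonic day 14.5 radial glia (CD133+, CD24-, CD45-, CD34-), whose values are set beside some genes.

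Ependymal cells form the epithelium of the ventricles and of the central canal. They carry motile cilia that move cerebrospinal fluid, and mature ependymal cells rarely divide. Neurospheres are floating clusters that neural stem or progenitor cells form in culture, usually with epidermal growth factor and fibroblast growth factor, and cells that form them can give rise to astrocytes, oligodendrocytes and neurons.

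The 3 SC arrays detected 10742, 12298 and 11793 probes. Neurosphere replicates 1 and 2 detected 11434 and 11674 probes, and replicate 3 detected 16175. The mean raw intensity of replicate 3 was 654, against 199 and 248 on the other neurosphere arrays and 170 to 194 on the SC arrays. Over the 8221 genes, with 1 probe a gene, neurosphere replicates 1 and 2 correlated at r = 0.968. Replicate 3 correlated with them at 0.874 and 0.842, and SC pairs correlated at 0.910 to 0.939. Neurosphere and SC arrays correlated at 0.552 to 0.660. Neurosphere replicate 3 therefore stood apart from its group, and results that rest on it are given with and without it.

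Of the 8221 genes, 1490 (18.1%) were higher and 1381 (16.8%) were lower in neurosphere cells at a Benjamini-Hochberg adjusted p under 0.05 in limma. A change of 2 or more on the log2 scale was reached by 760 of the higher and 888 of the lower genes. Shares called in a gene list are to be read beside the 18.1% and 16.8% over all genes. The median change over all genes was 0.12. Scaling the arrays to equal medians instead of equal distributions moved that median to 0.58 and the counts to 1692 higher and 818 lower. Among the 5463 genes detected on all 6 arrays, 746 were higher and 687 lower. A further 445 genes were detected on all 3 neurosphere arrays and on no SC array. Another 319 were detected on all 3 SC arrays and on no neurosphere array. Genes of these sets entered only through the group where they were high, and 370 of the 445 and 314 of the 319 were called. Neither their count nor their calls and p-values are therefore a separate result. Without neurosphere replicate 1 the counts were 738 higher and 1119 lower, without replicate 2 they were 673 and 1078, and without replicate 3 they were 1217 and 1743. Without SC replicate 1, 2 or 3 they were 1113 and 859, 1128 and 868, and 1135 and 858. Leaving out an array also drops genes detected on just 3 arrays. With all 8221 genes kept, the higher counts ran from 1008 to 1619 and the lower counts from 1089 to 1789. For gene lists, a count without an array is one with the filter applied again, unless the genes are said to be kept, and is given where it differs by over 1.5 times.

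**Figure D1:**
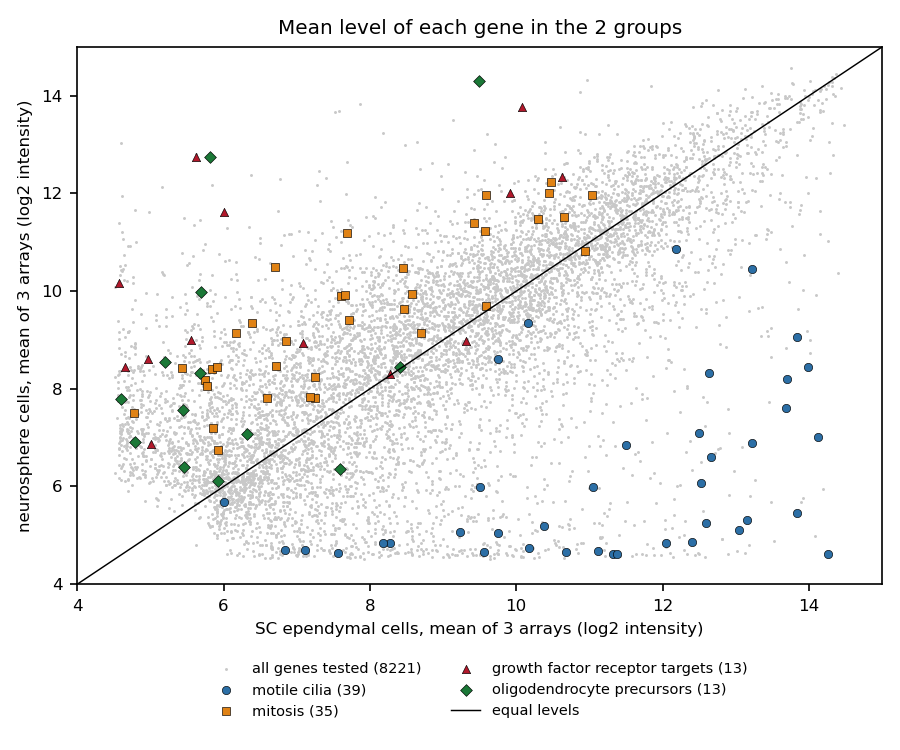
Mean log2 intensity of each of the 8221 genes in SC ependymal cells (x axis) and in neurosphere cells (y axis), each over 3 arrays, with 4 gene lists marked and the line of equal levels. Motile cilia genes lie below the line toward the bottom right, and growth factor targets, oligodendrocyte precursor genes and mitosis genes lie mostly above it.

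Motile cilia genes gave the most one-sided change of any list with 8 or more tested members. Of 60 listed genes 50 were on the array and 39 were tested, and 35 of these 39 (89.7%) were lower and 0 higher, with a median change of -5.41, or -5.02 with undetected genes at their bound. Of the 15 detected on all 6 arrays, 13 were lower. The mean level of the 39 genes was 11.32, 11.21 and 11.25 on the SC arrays and 6.23, 6.12 and 6.23 on the neurosphere arrays, so that the ranges did not overlap. Leaving out any 1 SC array left 21 lower, because fewer genes then passed the detection filter; with the same genes kept, no array left out moved the 35 by over 1.5 times. These are levels in bulk samples, in which fewer ciliated cells and less RNA per cell cannot be told apart.

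Odf3b, a relative of the outer dense fibre proteins of sperm tails, read 14.24, 14.28 and 14.25 on the SC arrays and 4.62 on each neurosphere array. All SC arrays were alike, and no neurosphere array detected it. It was at least 388-fold lower. Such a bound sets the mean of the higher group against the lowest signal detected on the arrays of the other group. Where some arrays of a group detected a gene, the change is that of the measured means, and its size then rests in part on signals not above background. Cfap65, needed for the flagellar axoneme, read 14.13, 14.16 and 13.98 in SC cells and 5.12, 5.08 and 4.74 in neurosphere cells, at least 344-fold lower. Cfap43, a cilia and flagella protein, was at least 183-fold lower and Cfap161 at least 165-fold lower, both by a probe that no neurosphere array detected. Another Cfap43 probe, which at least 1 neurosphere array detected, was also lower where an SC array was left out. Cfap65, Cfap43 and Cfap161 are named as being among the 12 largest decreases and are not in the list. Cfap45, an inner protein of the ciliary microtubule doublet, read 13.85, 13.92 and 13.73 against 5.09, 5.14 and 6.16. Only neurosphere replicate 3 detected it, and it fell by 8.37 ± 0.40 (SE) on the log2 scale. Tekt1, a tektin filament inside the doublet, read 13.03, 13.06 and 13.05 in SC cells and 4.81, 4.98 and 5.52 in neurosphere cells, a change of -7.94 ± 0.45. Zmynd10, which helps assemble the dynein arms that drive beating, read 12.61, 12.20 and 12.40 against 5.05, 4.81 and 4.71. The groups stood far apart and no neurosphere array detected it, so it was at least 107-fold lower. Cfap52 was at least 122-fold lower and Ccdc113 fell by 7.85 ± 0.38. The exceptions among the 39 were Ak7 (-2.14, adjusted p = 0.0924), Armc4 (-0.33), Dnaaf1 (-1.14) and Dnaaf2 (-0.82), whose changes did not pass the test. In radial glia, Tekt1 had a mean of 9.17 and Zmynd10 of 8.81, between the neurosphere and SC values.

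The promoters of Tekt1 and Zmynd10 are shown because regulatory factor X (RFX) proteins act on ciliary genes through the X-box, whose conserved end reads GTTGCCA. Each line is a RefSeq window of 300 bases, most of them upstream of a transcript start, on GRCm38.p6, with that heptamer, on either strand, in capitals.
Tekt1 (chr11:72361833-72362132, minus strand): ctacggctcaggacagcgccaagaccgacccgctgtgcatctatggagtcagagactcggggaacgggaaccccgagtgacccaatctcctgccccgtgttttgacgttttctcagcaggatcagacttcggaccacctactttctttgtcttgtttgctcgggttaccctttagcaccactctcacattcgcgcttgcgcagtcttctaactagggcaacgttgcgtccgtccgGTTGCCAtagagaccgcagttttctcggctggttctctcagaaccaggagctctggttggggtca
Zmynd10 (chr9:107547054-107547353, plus strand): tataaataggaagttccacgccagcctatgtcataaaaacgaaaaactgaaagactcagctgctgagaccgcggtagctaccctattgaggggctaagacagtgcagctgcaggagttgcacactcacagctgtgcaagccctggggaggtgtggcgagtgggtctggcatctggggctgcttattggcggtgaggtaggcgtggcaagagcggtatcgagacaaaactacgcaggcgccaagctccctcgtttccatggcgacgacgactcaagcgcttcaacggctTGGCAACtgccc
The heptamer was found on one or the other strand in 9 of 57 promoters (15.8%) of motile cilia genes and in 4.38% of all 32851 RefSeq promoters of this length. It was in 7.69% of 1444 promoters of genes lower in neurosphere cells, in 2.18% of 1557 promoters of genes higher there and in 4.02% of the 8666 promoters of all genes tested. These are descriptions of letters in a window, not of bound sites.

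Transcription factors of the multiciliated cell programme were also lower, in 6 of 8 tested members (75%, against 16.8% over all genes). None was higher, and the median change was -2.82. Just 3 of the 8 were detected on all 6 arrays, and 2 of these were lower. Trp73, the p73 factor that acts early in multiciliogenesis, read 10.50, 10.71 and 10.55 in SC cells and 4.82, 4.77 and 4.71 in neurosphere cells, and was at least 30.5-fold lower. Rfx2, an RFX factor, read 12.63, 12.49 and 12.53 against 8.12, 7.46 and 7.94. Every neurosphere array still detected it, and it fell by 4.71 ± 0.30 (adjusted p = 4.09e-07). Foxj1, the forkhead factor required for motile cilia, read 9.45, 9.32 and 9.02 against 5.99, 5.61 and 5.14, a change of -3.68 ± 0.41. Myb was at least 4.25-fold lower, and Ccno, a cyclin-like protein that acts in centriole amplification, fell by 2.66 ± 0.63. Rfx1 fell by 2.54 ± 0.55, a call that was lost when intensities were not background corrected. Rfx3 read 7.63, 6.47 and 5.27 in SC cells and 6.84, 7.13 and 6.40 in neurosphere cells, and its change of 0.33 ± 0.73 did not pass the test. Rfx4, a family member with a role in neural progenitors, read 8.41, 9.45 and 9.43 against 9.62, 10.17 and 10.11, a change of 0.87 ± 0.39 (adjusted p = 0.105).

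Genes of intraflagellar transport and the BBSome, which carry cargo in primary as well as motile cilia, had a smaller median change. Of 25 tested, 20 were lower and 0 higher, with a median of -1.77, and 11 were lower when arrays were scaled to equal medians. A test against a log2 change above 1 left 12. Ttc8, a BBSome subunit, fell by 3.45 ± 0.32 and Ift88, needed to build cilia, read 10.15, 10.07 and 10.11 in SC cells and 6.97, 7.01 and 7.76 in neurosphere cells. All 3 neurosphere arrays detected Ift88, at lower levels that did not overlap with the SC arrays. Bbs4 fell by 2.79 ± 0.37, Bbs1 by 2.80 ± 0.38, Ift122 by 2.55 ± 0.50 and Ift140 by 2.50 ± 0.52. Without neurosphere replicate 3, Ift122 fell by 3.24.

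**Figure D2:**
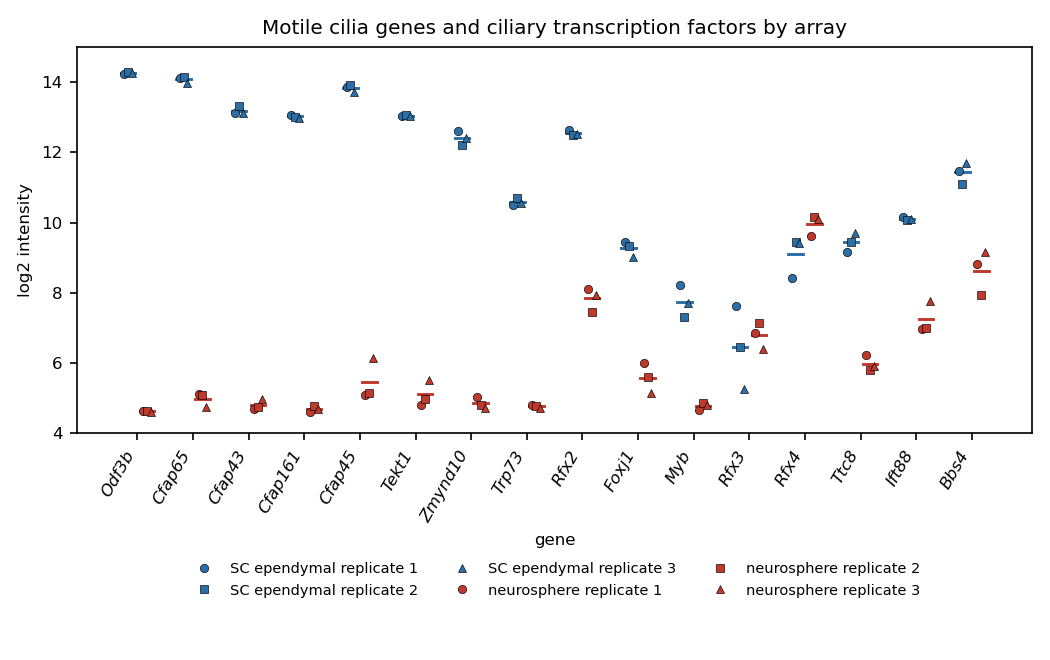
Log2 intensity of 16 cilia genes and transcription factors on each array, with a marker shape for each replicate and a bar at the mean of each group of 3. The probes used for Odf3b, Cfap65, Cfap43, Cfap161, Zmynd10, Trp73 and Myb were detected on no neurosphere array. Rfx2, Ift88 and Bbs4 were lower but detected, Rfx3 overlaps between the groups, and Rfx4 is separated by a small gap.

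Prom1, which encodes the sort antigen CD133, read 11.85, 11.64 and 11.72 in SC cells and 9.44, 9.82 and 8.94 in neurosphere cells. All arrays detected it and the groups did not overlap; it fell by 2.33 ± 0.30 (adjusted p = 0.000111). The source was sorted on this antigen and the culture was not. Cd24a, Ptprc (CD45) and Cd34 did not pass the detection filter. Among 15 tested ependymal markers 9 were lower and 1 higher, with a median of -2.36. Nnat, an imprinted proteolipid gene, read 11.93, 12.16 and 11.64 in SC cells and 5.88, 5.59 and 5.51 in neurosphere cells, a change of -6.25 ± 0.34. Dynlrb2, a dynein light chain, fell by 5.54 ± 0.45 and Calml4, a calmodulin relative, by 3.93 ± 0.55. Hdc, which makes histamine, was at least 16.4-fold lower. Clu, the secreted chaperone clusterin, read 14.18, 13.97 and 14.15 against 10.47, 8.85 and 10.47, and fell by 4.17 ± 0.46. Vcam1, an adhesion molecule of the stem cell niche, was the member that was higher, with 10.55, 9.77 and 9.89 in neurosphere cells and 8.65, 5.23 and 7.37 in SC cells (2.99 ± 0.71, or 3.77 with SC replicate 1 left out and 2.07 with SC replicate 2 left out). Without SC replicate 3 there were 2 higher members, also with the genes kept.

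Several of the 12 largest decreases were in no cilia list, Cfap65, Cfap43 and Cfap161 among them. Absence from these lists therefore does not mean that a gene is unrelated to cilia. Traf1, a signalling adaptor of tumour necrosis factor receptors, read 13.64, 13.51 and 13.41 in SC cells and 5.42, 4.63 and 4.59 in neurosphere cells, at least 232-fold lower. Htr5b, a serotonin receptor gene, read 12.58, 12.43 and 12.72 against 4.53, 4.57 and 4.58, at least 121-fold lower. The probes used for both genes were detected on no neurosphere or radial glia array. Without any 1 SC array, Traf1 was still tested and lower through another probe, which at least 1 neurosphere array detected. Kndc1 fell by 8.26 ± 0.47, or by 7.61 without neurosphere replicate 3, and Mia, a secreted protein in the ependymal marker list, by 8.22 ± 0.60. The remaining named decreases of this size were 1700016K19Rik (at least 177-fold), 1700012B09Rik (at least 151-fold) and 1110017D15Rik, which fell by 8.16 ± 0.41.

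The 12 largest increases were of genes detected on at most 1 SC array. Hs3st2, a heparan sulfate sulfotransferase, read 13.42, 12.81 and 12.88 in neurosphere cells and 4.61, 4.58 and 4.59 in SC cells. It was detected on every neurosphere array and on no SC or radial glia array, and was at least 136-fold higher. Sez6l, a neuronal membrane protein, was at least 64.3-fold higher, with 12.04, 11.82 and 12.01 in neurosphere cells. Ptn, the growth factor pleiotrophin, read 13.18, 12.60 and 12.64 in neurosphere cells and 4.81, 5.40 and 6.65 in SC cells, a rise of 7.19 ± 0.63. Only 1 SC array detected it, while radial glia had a mean of 11.39. Igfbp3, which binds insulin-like growth factors, read 11.35, 11.48 and 11.38 against 4.56, 4.55 and 4.60, at least 43.7-fold higher, and was not detected in radial glia (mean 4.96). Chst7, another sulfotransferase, rose by 6.99 ± 0.46 and Brinp2 by 6.34 ± 0.56. Armh4 (at least 52.5-fold) and the nicotinic receptor subunit gene Chrna4 (at least 51.0-fold) were higher and not detected in SC cells. So were the perinatal myosin gene Myh8 (at least 38.1-fold) and the serine protease gene Prss35 (at least 34.8-fold).

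Of 24 listed genes that respond to growth factor receptors through the MAP kinase pathway 13 were tested, and 10 of these were higher and 0 lower, with a median change of 3.45, or 2.49 with undetected genes at their bound. Just 6 of the 13 were detected on all 6 arrays, 3 of them higher; without neurosphere replicate 1 or 2, fewer genes passed the filter and 6 were higher. Egfr, the receptor for epidermal growth factor and a member of the stem and progenitor list, read 10.98, 10.82 and 11.08 in neurosphere cells and 4.98, 6.31 and 5.93 in SC cells. The neurosphere arrays were tightly grouped and far above every SC array (5.22 ± 0.43, adjusted p = 3e-06), and radial glia had a mean of 7.73. Dusp6, a phosphatase that is induced by ERK and turns it off, read 13.28, 13.05 and 11.89 in neurosphere cells and 5.21, 7.04 and 4.62 in SC cells, a rise of 7.12 ± 0.77, or 7.83 without SC replicate 2. Dusp4, a related phosphatase, rose by 5.62 ± 0.53, or by 4.90 without SC replicate 1. The ETS factors Etv5 (10.48, 10.12 and 9.89 in neurosphere cells) and Etv4 (8.16, 7.14 and 10.03) were at least 18.5-fold and at least 5.61-fold higher, and no SC array detected either. The bound of Etv4 was 3.23-fold without neurosphere replicate 3 and 8.82-fold without replicate 2. Spry4, a feedback inhibitor of receptor tyrosine kinases, was at least 6.29-fold higher. Ccnd1, the cyclin that links growth factors to cell cycle entry, read 13.29, 13.77 and 14.23 against 10.10, 10.20 and 9.95, a rise of 3.68 ± 0.72.

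DNA replication genes were higher in 20 of 34 tested members (58.8%) and lower in 3, with a median change of 1.59. Of the 24 detected on all 6 arrays, 11 were higher and 3 lower. The mean level of the 34 genes was 8.25, 8.35 and 8.27 on the SC arrays and 8.93, 10.08 and 9.82 on the neurosphere arrays, all above the SC arrays, and 10.46 to 10.71 in radial glia. With all genes kept, 10 were higher without neurosphere replicate 2 and 12 without SC replicate 1; when the filter was applied again these were 7 and 12, and also 12 without neurosphere replicate 3 and 13 without SC replicate 2. A test against a log2 change above 1 left 5. Cdc6, which loads the replicative helicase, read 8.74, 10.61 and 8.14 in neurosphere cells and 5.30, 5.78 and 5.4 in SC cells, a rise of 3.67 ± 0.53 (adjusted p = 0.000265), or 2.95 without neurosphere replicate 2. Gins2 rose by 2.78 ± 0.52 (2.19 without SC replicate 3), the thymidine kinase gene Tk1 by 2.71 ± 0.57 (3.45 without neurosphere replicate 1), the sliding clamp gene Pcna by 2.59 ± 0.45 and the polymerase gene Pole by 2.23 ± 0.48. Mcm5, a helicase subunit, read 11.28, 12.55 and 11.95 against 9.66, 9.86 and 8.45, a rise of 2.60 ± 0.54 whose call was lost without background correction. Chaf1a, a histone chaperone subunit, went the other way, with 6.09, 7.05 and 8.28 in neurosphere cells and 9.63, 9.63 and 10.04 in SC cells (-2.63 ± 0.46). Rfc2 and Gins4 fell by 1.69 ± 0.34 and 1.06 ± 0.35; neither call held when arrays were scaled to equal medians, and that of Gins4 was also lost under the replicate block and without any 1 array other than neurosphere replicate 3.

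Mitosis genes were higher in 18 of 35 tested members (51.4%) and lower in 0, with a median of 1.75, and in 7 of the 22 detected on all 6 arrays. Their mean level was 7.34, 7.88 and 8.20 on the SC arrays and 8.87, 10.33 and 9.52 on the neurosphere arrays. Neurosphere replicate 2 was highest and SC replicate 1 lowest; without neurosphere replicate 2, 10 members were higher with the genes kept and 8 with the filter applied again, and a test against a log2 change above 1 left 3. Aurkb, the kinase of the chromosomal passenger complex, read 7.62, 9.60 and 8.07 in neurosphere cells and 5.68, 5.42 and 5.18 in SC cells. It was detected on no SC array and was at least 5.57-fold higher. Kif4, a chromosome-bound kinesin, read 8.48, 10.35 and 8.63 against 4.57, 6.02 and 7.92, a rise of 2.98 ± 0.74. Cdca5, which protects sister chromatid cohesion, rose by 3.5 ± 0.87 from SC values of 5.03, 8.93 and 9.11. Sgo1, which guards the centromere, was at least 2.92-fold higher, or 1.90-fold without neurosphere replicate 2. Nusap1, a spindle protein, rose by 3.79 ± 0.94, a call lost without background correction. In Kif4, Cdca5 and Nusap1 the SC arrays were spread widely, with replicate 1 lowest. Without SC replicate 1 their changes were 2.19, 2.17 and 2.82, and without SC replicate 3 they were 3.86, 4.22 and 4.85. Without SC replicate 2 that of Cdca5 was 4.13, and without neurosphere replicate 2 those of Kif4 and Nusap1 were 2.39 and 3.18.

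Among cyclins, cyclin-dependent kinases and their inhibitors, 9 of 19 tested were higher and 0 lower. The higher count was 4 without neurosphere replicate 1, or 5 with the genes kept, and 5 without replicate 2; without replicate 3, 2 were lower in both forms. E2f3, an E2F factor that drives S phase genes, rose by 3.63 ± 0.89 and Rbl1, the p107 pocket protein, by 2.57 ± 0.58. Without neurosphere replicate 3 these rises were 4.37 and 3.27, and without replicate 2 they were 3.03 and 1.81. That of E2f3 was 4.43 when SC replicate 1 was left out and 2.99 when SC replicate 3 was. Cdkn2a, the locus of the p16 and p19 proliferation inhibitors, read 7.46, 7.09 and 9.49 in neurosphere cells and 5.13, 5.0 and 5.08 in SC cells, at least 4.17-fold higher, or 2.50-fold without neurosphere replicate 3. Its neighbour Cdkn2b, which encodes p15, read 11.71, 10.70 and 9.52 against 8.19, 7.74 and 7.25 (2.92 ± 0.81, adjusted p = 0.0159), a call lost without neurosphere replicate 1, neurosphere replicate 2 (with the filter applied again) or SC replicate 3, without background correction and without a detection filter. Drivers and inhibitors of the cell cycle were both among the higher members of this list.

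Mcm5, Kif4 and Cdk1 promoters are shown for the letters through which cell cycle genes are known to be timed. Cdk1 is shown for its letters alone, and no change of its level is given here. The E2F site was searched as TTTCGCGC or TTTGGCGC, the cell cycle homology region (CHR) as TTTGAA and the CCAAT box as CCAAT, on both strands. Capitals mark the E2F letters in Mcm5, where the searched sites of both strands overlap, and the CHR and CCAAT letters in Kif4 and Cdk1. Other searched letters were left in lower case, namely CCAAT letters in Mcm5 and an E2F site (TTTCGCGC) in Cdk1. The build and window are the same as above.
Mcm5 (chr8:75109259-75109558, plus strand): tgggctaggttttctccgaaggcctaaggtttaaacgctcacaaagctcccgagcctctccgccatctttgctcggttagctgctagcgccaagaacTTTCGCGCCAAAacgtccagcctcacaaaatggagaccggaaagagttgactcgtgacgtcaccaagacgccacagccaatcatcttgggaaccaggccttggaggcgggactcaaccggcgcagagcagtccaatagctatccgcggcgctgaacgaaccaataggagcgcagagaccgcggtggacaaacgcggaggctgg
Kif4 (chrX:100625815-100626114, plus strand): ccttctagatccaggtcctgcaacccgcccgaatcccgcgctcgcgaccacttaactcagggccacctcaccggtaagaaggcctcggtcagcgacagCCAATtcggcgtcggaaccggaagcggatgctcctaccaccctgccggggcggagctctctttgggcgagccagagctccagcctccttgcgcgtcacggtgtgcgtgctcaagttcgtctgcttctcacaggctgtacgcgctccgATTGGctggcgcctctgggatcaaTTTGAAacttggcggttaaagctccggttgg
Cdk1 (chr10:69352863-69353162, minus strand): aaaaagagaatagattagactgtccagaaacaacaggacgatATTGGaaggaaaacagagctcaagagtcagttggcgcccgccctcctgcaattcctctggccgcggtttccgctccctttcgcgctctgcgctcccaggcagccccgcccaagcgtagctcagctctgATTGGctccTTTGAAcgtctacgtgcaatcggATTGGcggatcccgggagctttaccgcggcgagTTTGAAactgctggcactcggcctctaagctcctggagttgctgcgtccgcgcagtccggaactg
E2F letters were in 11 of 42 promoters of DNA replication genes (26.2%) and in 0.813% of all promoters. CHR letters were in 37 of 51 promoters of mitosis genes (72.5%) and in 17.9% of all, and CCAAT in 40 of 51 (78.4%) and in 37.4% of all. Over the 1557 promoters of all genes that were higher in neurosphere cells, CHR letters were in 12.1% and E2F letters in 2.12%, against 11.3% and 1.55% over all genes tested.

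**Figure D3:**
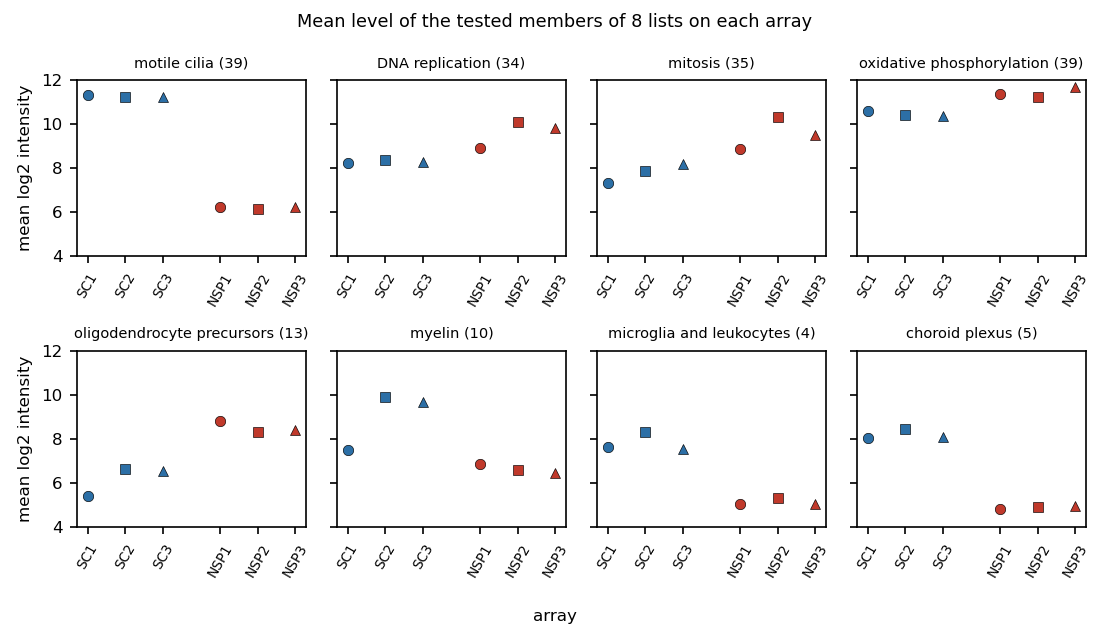
Mean log2 intensity of the tested members of 8 gene lists on each SC and each neurosphere array, with the number of members in brackets. Motile cilia genes fall from above 11 to near 6 on every neurosphere array, DNA replication and mitosis genes lie higher there, and SC replicate 1 lies below the other SC arrays for oligodendrocyte precursor and myelin genes.

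Neural stem and progenitor genes were mixed, with 9 of 21 tested higher, 4 lower and a median of 0.76. Tnc, the niche matrix protein tenascin, read 9.14, 10.18 and 9.61 in neurosphere cells and 4.81, 4.72 and 4.71 in SC cells, at least 12.9-fold higher. Fabp7, the brain lipid-binding protein of radial glia, was at least 3.77-fold higher, yet radial glia arrays did not detect it (mean 4.79). Sox11, a factor of immature neural cells, rose by 3.11 ± 0.55. Nes, the intermediate filament nestin, read 6.97, 6.90 and 9.75 against 4.93, 5.10 and 4.90 and was at least 3.79-fold higher. The bound was 1.97-fold without neurosphere replicate 3, and the call was lost in the authors' own normalised values and without a detection filter. Pax6, a patterning factor and progenitor gene, was lower, with 8.75, 8.49 and 8.58 against 11.13, 11.83 and 11.68 (-2.94 ± 0.74). Gfap, the filament of astrocytes and adult neural stem cells, was not detected on any neurosphere array and was at least 2.58-fold lower. Fgfr2 fell by 1.48 ± 0.31 and Msi1 fell by 1.85 ± 0.66, and scaling to equal medians ended both calls. That of Msi1 was also lost under the replicate block, in the authors' values and in fits to the 6 arrays alone. It was lost as well with another or no background correction, with a detection filter over 12 arrays and with no detection filter. Leaving out any of 4 of the 6 arrays (neurosphere replicates 2 and 3, SC replicates 2 and 3) also ended it. Without neurosphere replicate 1 or 2 the higher count was 5, because fewer genes passed the filter, and without SC replicate 2 or 3, or when arrays were scaled to equal medians, the lower count was 2.

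Genes of oligodendrocyte precursors were higher in 8 of 13 tested members and lower in 0, with a median of 2.13, or 1.84 at the bounds. Only 2 of the 13 were detected on all 6 arrays, neither of them called, and leaving out any neurosphere array removed enough genes to leave 4 higher. Olig2, a lineage factor of oligodendrocytes and motor neurons, read 12.72, 13.03 and 12.52 in neurosphere cells and 4.62, 6.94 and 5.88 in SC cells. No neurosphere array came near the SC arrays, and the change was 6.94 ± 0.49 (adjusted p = 7.93e-07), or 6.35 without SC replicate 1. Radial glia had a mean of 7.91. Olig1, its neighbour and partner, read 14.33, 14.30 and 14.28 in neurosphere cells and 4.69, 11.72 and 12.09 in SC cells. SC replicate 1 lay far below the other SC arrays, and the rise of 4.81 ± 1.58 (adjusted p = 0.0344) lost its call without any 1 neurosphere array, without SC replicate 1 (with the filter applied again), in fits to the 6 arrays alone, with the replicate block, without background correction and without a detection filter. It was 2.40, 5.92 and 6.10 with SC replicate 1, 2 and 3 left out in turn. Nkx2-2, another factor of the lineage, was at least 6.03-fold higher and Sox8 rose by 2.64 ± 0.39. Bcan, the proteoglycan brevican, read 9.21, 8.05 and 12.66 against 4.96, 5.91 and 6.21 (4.28 ± 0.91), with neurosphere replicate 3 well above the others. The change was 2.94 without replicate 3 and 5.24 without replicate 2. Dll3, a Notch ligand relative, and the proteoglycan gene Cspg5 were at least 3.59-fold and 1.95-fold higher. Sox10, which marks the whole lineage, read 7.90, 5.03 and 6.16 in neurosphere cells and 6.27, 7.59 and 8.91 in SC cells and did not pass the test (-1.23 ± 0.80), nor did Cspg4 (0.77 ± 0.36) or Gpr17 (0.20 ± 0.53).

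Among 10 tested myelin genes 4 were lower and 0 higher, 6 did not pass the test, and the median was -2.30. Mbp, a major myelin protein, read 9.78, 13.56 and 13.55 in SC cells and 4.69, 4.63 and 4.79 in neurosphere cells. It was detected on every SC array, although the cells were sorted as ependymal, and on no neurosphere array, and was at least 99.5-fold lower. Mobp read 8.07, 11.20 and 9.98 against 4.63, 4.64 and 4.58, at least 17-fold lower. The bound of Mbp was 238-fold without SC replicate 1, 64.2-fold without replicate 2 and 64.5-fold without replicate 3, and that of Mobp was 30.5-fold without replicate 1 and 10.3-fold without replicate 2. Tspan2 and Fa2h fell by 3.33 ± 0.61 and 2.66 ± 0.43, and Tspan2 fell by 2.64 without neurosphere replicate 3. Cldn11, the tight junction protein of myelin, read 4.58, 11.65 and 12.60 in SC cells and 6.26, 5.01 and 4.82 in neurosphere cells and was not called (-4.25 ± 1.71, adjusted p = 0.0752). Cnp read 8.51, 8.68 and 9.01 against 8.56, 7.77 and 8.53 (-0.45 ± 0.33). Mean myelin levels were 7.49, 9.92 and 9.69 on the SC arrays, so replicate 1 was lowest for Mbp, Mobp, Cldn11 and Mal as it was for Olig1. Without SC replicate 2 or 3 and with the filter applied again, 2 were lower. The part of myelin RNA from other cells in the source was not tested.

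**Figure D4:**
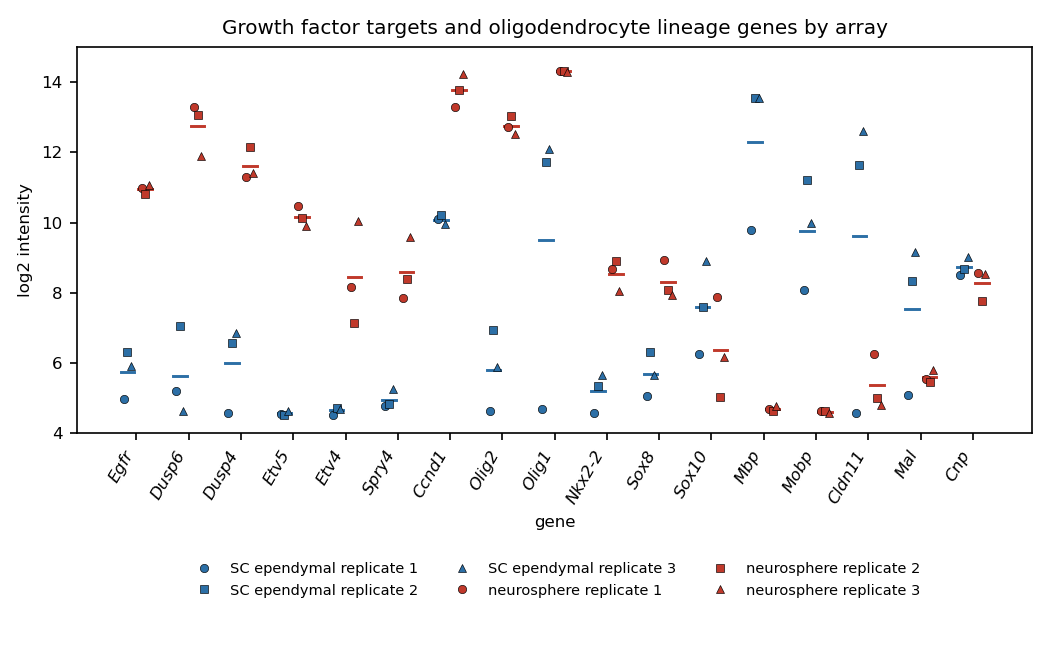
Log2 intensity of growth factor target genes and oligodendrocyte lineage genes on each array, with a marker shape for each replicate and a bar at each group mean. Egfr, Dusp6, Etv5 and Olig2 separate the groups without overlap, Mbp and Mobp are at the bottom of the scale on every neurosphere array, and SC replicate 1 departs from the other SC arrays at Olig1, Mbp, Cldn11 and Mal.

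Astrocyte genes had 4 of 20 tested higher and 3 lower (median 0.37), shares of 20% and 15% that are near the background. The glutamate transporter gene Slc1a3 read 13.84, 13.78 and 13.96 in neurosphere cells and 12.34, 12.40 and 12.88 in SC cells, a rise of 1.32 ± 0.31, and Glul, which makes glutamine, rose by 2.69 ± 0.56. Atp1b2 rose by 1.62 ± 0.38. Acsbg1, a fatty acid activating enzyme, read 8.98, 8.21 and 11.27 against 5.05, 5.41 and 5.42, at least 11.6-fold higher. The bound was 6.25-fold without neurosphere replicate 3 and 18.0-fold without replicate 2. Gfra1, a receptor for the growth factor GDNF, fell by 2.55 ± 0.44.

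Neuronal genes had 5 of 13 tested higher and 5 lower. The higher count was 2 without neurosphere replicate 1 or 2 and 3 without neurosphere replicate 3 or SC replicate 1. The lower count was 2 without SC replicate 1 or 2 and 3 when SC replicate 3 or neurosphere replicate 1 or 2 was left out. With the genes kept it was 3 when neurosphere replicate 1 or 2 or SC replicate 1 or 2 was left out, and it was 2 when arrays were scaled to equal medians. Gap43, a growth cone protein, read 9.02, 9.21 and 9.51 in neurosphere cells and 5.57, 4.58 and 4.66 in SC cells, at least 9.82-fold higher. Nsg1 rose by 1.95 ± 0.42, and Syn1, a synaptic vesicle protein, by 1.96 ± 0.51, a call lost without SC replicate 1 with the filter applied again. Stmn2, a microtubule regulator of neurons, read 4.73, 4.59 and 4.67 against 8.84, 8.14 and 8.71, at least 7.49-fold lower, and Celf4 fell by 3.67 ± 0.41. Of 30 listed genes, 17 did not pass the detection filter, Dcx, Neurog1 and Neurog2 among them.

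Most called markers of other cell types that a sort can carry along were lower in neurosphere cells. Of 19 microglia and leukocyte genes on the array 15 did not pass the filter, and 3 of the 4 tested were lower. The 4 were detected mainly on SC arrays and 0 of them on all 6 arrays, so this count is not a separate result. Laptm5, a lysosomal protein of blood cells, read 11.43, 11.83 and 11.28 in SC cells and 5.46, 6.88 and 4.68 in neurosphere cells, a change of -5.84 ± 0.72, or -6.44 without neurosphere replicate 2. C1qb and Ly86 were at least 2.45-fold and 2.20-fold lower, the latter not called when arrays were scaled to equal medians. The mean of the 4 was 7.55 to 8.31 on the SC arrays and 5.03 to 5.33 on the neurosphere arrays, and Ptprc, Aif1, Cx3cr1 and Itgam did not pass the filter. Of 22 endothelial genes 5 were tested and 2 were lower. Slc2a1, a glucose transporter that is also in the glycolysis and channel lists, read 13.17, 13.09 and 13.29 in SC cells and 9.78, 8.81 and 10.17 in neurosphere cells (-3.59 ± 0.39), and Pecam1, Cdh5 and Cldn5 did not pass the filter. The second lower gene, Vwf, lost its call without neurosphere replicate 1 or 2 or SC replicate 2, when arrays were scaled to equal medians, without background correction and without a detection filter. Among 9 mural and fibroblast genes 2 were lower and 1 higher; Vtn, the adhesion protein vitronectin, was at least 15.2-fold lower and the matrix proteoglycan gene Dcn at least 5.74-fold lower. The choroid plexus list had 13 genes on the array and 5 tested, while Ttr did not pass the filter. Of the 5, 3 were lower, namely Lbp (at least 19.4-fold), Folr1 (at least 16.8-fold) and Aqp1 (at least 7.20-fold). The 5 were also detected mainly on SC arrays and 0 of them on all 6 arrays, so this count is likewise not a separate result. Leaving out any SC array removed enough of these genes from the test to leave 1 microglial, 0 mural and 0 or 1 choroid plexus genes lower, and leaving out any neurosphere array left 0 mural genes higher. The part of such cells in the SC values was not tested.

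Of 20 tested Hox genes, which record position along the body axis, 12 did not pass the test, 3 were higher and 5 lower, with a median change of -0.36. Without SC replicate 1 or 3, 3 were lower. These shares of 15% and 25% compare with 18.1% and 16.8% over all genes. Hoxa5, Hoxa7 and Hoxc8 differed by 0.09, -0.53 and 0.11 and did not pass the test, with neurosphere means of 12.72, 13.06 and 10.83. Radial glia arrays had means of 4.56, 4.67 and 4.59 for the same genes. Hoxd10, a lumbar Hox gene, read 8.73, 8.92 and 9.47 in SC cells and 5.48, 5.51 and 7.0 in neurosphere cells, a change of -3.05 ± 0.40. Hoxb13, the most posterior gene of its cluster, read 7.86, 7.71 and 7.41 against 4.64, 4.65 and 5.74 (-2.65 ± 0.33), and Hoxd3 was at least 3.5-fold lower. Hoxb5 fell by 1.85 ± 0.24. Hoxa9 and Hoxb9 rose by 1.48 ± 0.30 and 1.73 ± 0.40, the latter not without background correction. Hoxb7 fell by 0.83 ± 0.30 and Hoxc4, which no SC array detected, was at least 1.08-fold higher. Both calls were lost under several settings, including fits to the 6 arrays alone, median scaling, the replicate block (adjusted p = 0.0726 and 0.0761 in limma) and, with the genes kept, leaving out any 1 array other than neurosphere replicate 2 for Hoxb7 and replicate 3 for Hoxc4. Among 13 factors that pattern the neural tube, 3 were higher (Olig1, Olig2 and Nkx2-2, given above) and 3 lower, or 23.1% each. Without any 1 neurosphere array, 1 was higher. Nkx6-1, a ventral progenitor factor, fell by 2.53 ± 0.52, and Pax6 was lower as given above. Irx3 fell by 2.20 ± 0.60 and was not called without SC replicate 2 or without background correction.

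Signalling genes showed changes in both directions. Over all genes tested, 18.1% were higher and 16.8% lower. In the BMP and TGF-beta list 8 of 21 tested were higher (38.1%) and 4 lower (19%). The higher count was 4 when neurosphere replicate 1 was left out, or 5 with the genes kept, and 5 when replicate 2 was. Of the 13 members detected on all 6 arrays, 4 were higher and 3 lower. The Id inhibitors of differentiation, which are BMP targets, split. Id3 read 10.28, 10.13 and 10.35 in neurosphere cells and 6.51, 6.04 and 5.77 in SC cells (4.15 ± 0.38), and Id1 rose by 3.66 ± 0.46. Id4 read 5.01, 4.60 and 4.76 in neurosphere cells against 9.71, 9.98 and 10.03 in SC cells and was at least 19-fold lower, while radial glia had a mean of 10.03. Bmp7, a ligand, was at least 5.30-fold higher, a call lost without background correction. With the genes kept, the call held without any 1 array. With the filter applied again, leaving out a neurosphere array removed this probe, and another Bmp7 probe stood for the gene. That probe was not called, with changes of 0.50, 0.28 and 1.34 without neurosphere replicate 1, 2 and 3. The receptors Acvr2b and Tgfbr3 fell by 2.71 ± 0.54 and 2.60 ± 0.54, the latter by 1.92 without neurosphere replicate 3.

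In the Wnt list 8 of 20 tested were higher (40%) and 3 lower (15%). Without neurosphere replicate 1 or 2, 5 were higher, and without replicate 3, 5 were lower, also with the genes kept. Of the 8 Wnt members detected on all 6 arrays, 2 were higher and 0 lower. The ligand Wnt5a read 10.70, 10.55 and 9.41 in neurosphere cells and 6.26, 4.85 and 5.87 in SC cells (4.56 ± 0.64), and Wnt7a rose by 3.31 ± 0.70, or by 4.02 without SC replicate 2. Tcf7l2, a nuclear effector, rose by 2.20 ± 0.48. The receptor Fzd6 read 5.68, 5.21 and 5.11 against 10.38, 9.64 and 10.05 (-4.69 ± 0.31), and Dkk3, of the Dickkopf family of secreted proteins, fell by 5.35 ± 0.50, or by 6.00 without neurosphere replicate 2. In the Notch list 4 of 14 were higher (28.6%) and 0 lower, with a median change of 0.087. Just 1 was higher without neurosphere replicate 1 or 2, and without replicate 3, 2 were higher and 2 lower. Of the 11 Notch members detected on all 6 arrays, 1 was higher. Hes6 read 14.18, 14.15 and 13.93 against 10.76, 11.01 and 10.82, a rise of 3.22 ± 0.36 with no overlap. In the Hedgehog list Gli3, a transcription factor of the pathway, was the member called, rising by 3.15 ± 0.74 (2.54 without SC replicate 2). Without neurosphere replicate 3, 3 were higher, and 2 were when arrays were scaled to equal medians. In the insulin-like growth factor list 4 of 9 were higher and 0 lower, and 2 were higher without any 1 neurosphere array. Besides Igfbp3, the binding protein gene Igfbp4 read 13.33, 13.52 and 13.69 against 8.62, 9.60 and 9.20 (4.37 ± 0.32), and Igfbp7 rose by 2.18 ± 0.36.

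Oxidative phosphorylation genes, which encode the respiratory chain and ATP synthase, were higher in 21 of 39 tested members and lower in 0, with a median of 0.86. The 35 detected on all 6 arrays included 17 of these. The calls numbered 13 without SC replicate 1, 9 without neurosphere replicate 1 and 12 without neurosphere replicate 2, and 4 in a test against a log2 change above 1. Sdhd, a subunit of succinate dehydrogenase, read 10.29, 10.38 and 10.75 in neurosphere cells and 8.27, 8.01 and 7.85 in SC cells (2.43 ± 0.31). Ndufa5 and Ndufa4 rose by 2.75 ± 0.44 and 1.72 ± 0.43, and Atp5o was at least 4.38-fold higher.

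Cholesterol and fatty acid synthesis genes were higher in 7 of 23 (30.4%) and lower in 0. Over all genes tested, 18.1% were higher and 16.8% lower. The list had 11 higher in the authors' values, 4 higher without neurosphere replicate 2 and 1 lower without replicate 3. Elovl6, a fatty acid elongase, read 10.34, 10.98 and 11.73 in neurosphere cells and 4.75, 5.03 and 4.63 in SC cells, at least 33.4-fold higher. Cyp51, which demethylates lanosterol, rose by 4.51 ± 0.71 (5.14 without neurosphere replicate 3) and Scd1, a desaturase, by 2.94 ± 0.52 (2.31 without SC replicate 1). Of 21 genes of amino acid stress and serine synthesis, 11 were higher (52.4%) and 4 lower (19%). The higher count was 6 or 7 without any array but neurosphere replicate 3, and 7 with the genes kept without neurosphere replicate 2 or any SC array. The lower count was 1 or 2 in both forms without any array but neurosphere replicate 3, 1 when arrays were scaled to equal medians and 2 in the authors' values. The amino acid transporter genes Slc7a5 (3.51 ± 0.45) and Slc3a2 (2.72 ± 0.58, or 2.12 without neurosphere replicate 3), which encode the chains of 1 transporter, were both higher. Asns, which makes asparagine, rose by 4.18 ± 0.72, a call lost without background correction. Atf3, a stress-induced factor, read 5.14, 4.62 and 5.52 against 8.64, 8.89 and 8.79 (-3.68 ± 0.47). Glycolysis and hypoxia genes were split, with 6 of 23 higher (26.1%) and 7 lower (30.4%). The higher count was 3 without any 1 SC array, also with the genes kept, or without neurosphere replicate 1. The lower count was 4 without SC replicate 1 or 3 and when arrays were scaled to equal medians. Vegfa, the vascular growth factor, rose by 3.34 ± 0.69 and Ldha by 1.78 ± 0.29, while the prolyl hydroxylase gene P4ha2 and the hypoxia-induced Ankrd37 were at least 11.8-fold and 9.59-fold lower. Ribosome biogenesis genes were higher in 7 of 26 (26.9%) and lower in 0. The higher count was 4 without neurosphere replicate 2. The lower count was 3 without replicate 3, or 4 with the genes kept, and 2 in the authors' values. Ddx21, a nucleolar helicase, rose by 2.21 ± 0.39 and Gnl3, nucleostemin, by 1.31 ± 0.26.

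**Figure D5:**
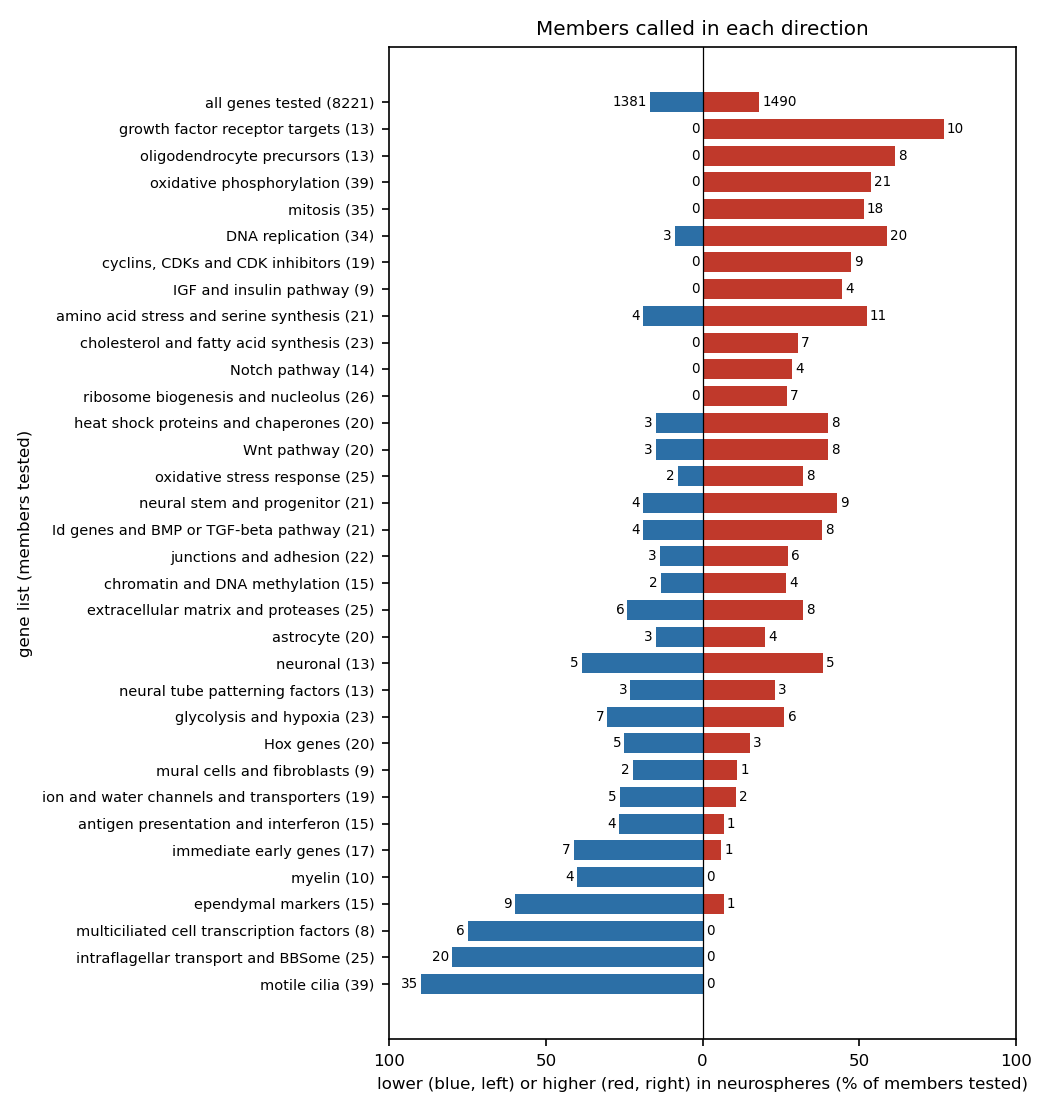
Share of the tested members of each gene list with 8 or more tested members that was lower (left, blue) or higher (right, red) in neurosphere cells at an adjusted p under 0.05, with the counts beside the bars and all 8221 genes in the top bar. The lists are ordered by the higher share minus the lower share, from growth factor receptor targets (10 of 13 higher) to motile cilia (35 of 39 lower).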

How the data were processed

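The authors deposited a linear intensity and a detection p-value per probe and array, per the file headers, and a table of log2 values that were quantile normalised between arrays by the authors, as its columns show. BeadStudio and lumi are named, with no role, per the submitters' processing notes. Total RNA was amplified in 2 rounds and biotin labelled, per the labels' protocols.

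The intensities were background corrected and quantile normalised over 12 arrays with neqc of limma 3.58.1 in R 4.3.3 (offset 16), which took its negative controls from the detection p-values. Detection p-values under 0.01 on 3 or more of the 6 arrays chose the probes, and the member probe with the highest mean stood for a gene. Symbols came from the platform annotation, and 29921 probes matched RefSeq by Entrez ID. One limma fit held 4 groups of 3 arrays, and p-values were two-sided and adjusted over 8221 genes. Errors are SE. Values of 3 arrays a group limit the precision. All 39 gene lists, of which 640 of 1089 genes were tested, and the genes shown were chosen with earlier results of these data known. The genes named were the sort antigens, the 12 largest non-overlapping changes in each direction, up to 6 called members of each list in each direction, and any member of a list of 20 or fewer; the 4 uncalled motile cilia genes, the marker genes named as not passing the filter and the Cdk1 promoter were added after their values were seen. The fit was tested on simulated data. Same-numbered replicates did not deviate together (r = -0.0986, 0.0523 and -0.0444), so no pairing was used. In 55 of 504 called genes with 2 or more probes another probe had the opposite sign, in 13 of them called.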

Additional observations from a re-analysis of the deposited data

How the results depend on the processing

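Alternatives are given as genes higher and lower, against 1490 and 1381. Scaling to equal medians gave 1692 and 818, array weights 2746 and 2429 (the weights did not converge), and a test against a log2 change above 1 gave 476 and 718. Leaving out 1 array gave 673 to 1619 higher and 858 to 1789 lower (1217 and 1743 without neurosphere replicate 3), with the detection filter applied again or, as an alternative chosen after seeing the data, with the same genes kept. Background correction, the authors' values, other detection filters, averaging probes, a fit to the 6 arrays alone and a trended spread kept both counts within 1.5 times, from 1178 to 1570 and from 1247 to 1405. The replicate block gave 1381 and 1306 and kept 2631 of the 2871 calls; the calls it ended among genes named are given with them. Of 58 counts of list members called, 12 to 28 moved by over 1.5 times when 1 array was left out with the filter applied again, 4 to 12 with the genes kept, 36 in the test against a change above 1, 21 with array weights and 15 under median scaling. Eed, a chromatin gene, was higher with its brightest probe and read -0.060 when probes were averaged. Of 246 genes named or eligible, 213 kept their call without background correction, 219 under median scaling and 149 in the test against a change above 1. Undetected genes have only bounds, 3 arrays a group leave small changes unseen, and neurosphere replicate 3 differed from its group in brightness. Whether sorting, culture or cell composition accounts for a change cannot be told apart here.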

Other observations

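Surface and matrix genes changed in both directions. Over all genes tested, 18.1% were higher and 16.8% lower. Lgals1 and Lgals3 encode sugar-binding galectins and moved apart. Lgals1 read 11.23, 11.97 and 12.33 in neurosphere cells and 7.74, 7.35 and 6.84 in SC cells (4.53 ± 0.50), and Lgals3 read 6.61, 5.18 and 6.26 against 12.17, 12.27 and 12.16 (-6.18 ± 0.38). Of 25 matrix and protease genes tested, 8 were higher (32%) and 6 lower (24%), or 3 lower when arrays were scaled to equal medians. Without neurosphere replicate 1, 4 were higher and without replicate 2, 5 were, with the detection filter applied again, as for the counts that follow unless the genes are said to be kept. Hapln4, which links hyaluronan to proteoglycans, was at least 3.54-fold higher, and Col4a2, a basement membrane collagen, fell by 2.57 ± 0.31. Of 22 junction and adhesion genes, 6 were higher (27.3%) and 3 lower (13.6%). The higher count was 2 without neurosphere replicate 1 or 2, or 3 with the genes kept, and 3 without SC replicate 3. The lower count was 1 when SC replicate 2 or 3 was left out, and 5 with the genes kept when SC replicate 1 was. Itgb4, the integrin of hemidesmosomes, read 4.58, 4.55 and 4.63 against 9.45, 9.63 and 9.56, at least 14.8-fold lower. Occludin (Ocln) was at least 2.82-fold lower, while Jam2 read 11.24, 11.25 and 11.23 against 9.08, 9.21 and 9.62 (1.93 ± 0.31). Slc14a1, a urea transporter, read 11.56, 11.68 and 12.10 in SC cells, was not detected on any neurosphere array, and was at least 69.5-fold lower.

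Immediate early genes, which cell dissociation is known to induce, were lower in 7 of 17 tested members (41.2%) and higher in 1 (5.88%). The higher count was 0 without any 1 neurosphere array. It was 2 without SC replicate 1, under the replicate block, in the authors' values and when arrays were scaled to equal medians. The source was sorted and the culture was not, so handling and cell state cannot be told apart. Ccn1 was at least 9.11-fold lower, and Junb read 4.87, 4.64 and 6.27 in neurosphere cells and 8.19, 7.97 and 8.65 in SC cells (-3.01 ± 0.55). Socs3 fell by 2.85 ± 0.51 and Zfp36 fell by 2.32 ± 0.35. Egr3 was the exception, at least 6.95-fold higher with no SC array detecting it. Of 15 genes of antigen presentation and interferon response, 4 were lower (26.7%) and 1 higher (6.67%). The lower count was 2 without neurosphere replicate 1 or 2, also with the genes kept, and 7 with the genes kept without replicate 3. Scaling to equal medians gave 2 lower and 2 higher, and the authors' values 2 higher. B2m, the light chain of MHC class I, rose by 2.91 ± 0.50, while the interferon-induced Ifitm3 fell by 2.22 ± 0.31 and H2-Ab1, of MHC class II, by 2.94 ± 0.39.

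Chaperone genes were higher in 8 of 20 tested members (40%) and lower in 3 (15%). The higher count was 5 when neurosphere replicate 1 or SC replicate 3 was left out, 4 when SC replicate 2 was and 3 when neurosphere replicate 2 was. With the genes kept it was 4 without neurosphere replicate 2 and 5 without each of the other arrays named. The mitochondrial chaperone gene Hspa9 rose by 1.70 ± 0.39. Hspb1, a small heat shock protein, read 6.72, 5.82 and 7.05 against 12.39, 11.42 and 11.27 (-5.17 ± 0.53). Among 25 genes of the oxidative stress response 8 were higher (32%) and 2 lower (8%). The higher count was 2 without neurosphere replicate 1, 3 without neurosphere replicate 3 and 5 without SC replicate 2. It was 4 when neurosphere replicate 2 or SC replicate 3 was left out. With the genes kept, 5 were higher without neurosphere replicate 1 or SC replicate 2, and 1 was lower when arrays were scaled to equal medians. Gstm1, a glutathione transferase, rose by 1.45 ± 0.35 and the metallothionein gene Mt2 fell by 2.88 ± 0.50, or by 2.25 without neurosphere replicate 2. Cbx7, a Polycomb protein that represses Cdkn2a in other cells, read 6.69, 5.46 and 7.26 in neurosphere cells and 10.54, 10.68 and 10.54 in SC cells (-4.11 ± 0.46). It was 1 of 2 lower (13.3%) among 15 chromatin genes, of which 4 were higher (26.7%). Without neurosphere replicate 2 the higher count was 1, and without SC replicate 1 it was 2. The lower count was 4 without neurosphere replicate 3 and 1 without any other array. These counts were the same with the genes kept, except the lower count without SC replicate 3. The lower count was also 1 under the replicate block, in the authors' values and when arrays were scaled to equal medians. Among 19 ion and water channel and transporter genes 5 were lower (26.3%) and 2 higher (10.5%), or 4 higher when arrays were scaled to equal medians. Without SC replicate 1 or 3, 2 were lower, and without SC replicate 2, 3 were. Both forebrain transcription factors tested, Nr2f1 (-0.26) and Dlx5 (0.42), did not pass the test.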
